A study of Mus musculus with 20 samples.

Results

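Mitochondrial ribosomal proteins are encoded in the nucleus, made in the cytosol and imported into mitochondria, where they assemble with the rRNAs of the mitochondrial genome. The large subunit (Mrpl genes) forms the peptide bonds, and the small subunit (Mrps genes) decodes the mRNA. The assembled ribosome translates only the few mRNAs of the mitochondrial genome, all of which encode core subunits of the respiratory chain and of ATP synthase. The members were chosen by name, as protein-coding genes whose symbol starts with Mrpl or Mrps and a digit, which gave 78 of the 32285 genes of the table, 49 Mrpl and 29 Mrps genes. A few symbols predate the structures: the products of Mrps30 and Mrps18a are placed in the large subunit, and Mrps36 is known as a component of the 2-oxoglutarate dehydrogenase complex. The counts below keep the symbols.

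The cells were immortalised primary murine cancer-associated fibroblasts (CAFs), the fibroblasts of the tumour stroma, kept for 32 h in 4 conditions with 5 libraries each. At 0.2 mM glutamine they received 25 uM EIPA or vehicle alone, and at 4 mM glutamine 25 pg/mL IL-1a or vehicle alone. DMSO, the vehicle, was present in all 4 groups. EIPA, a derivative of amiloride, blocks sodium-proton exchangers and with them macropinocytosis, by which cells engulf the fluid around them, and IL-1a is an inflammatory cytokine. The titles give EIPA as 25 uM and the treatment protocol as 25 mM, and the titles were followed. Whether the 5 libraries of a group came from separate cultures is not stated, so p-values measure the spread between these samples, which may be technical. Levels are TPM, transcript abundances scaled to the same total in every library, which keep no trace of sequencing depth, so depth per library is unknown.

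The fibroblast markers Col1a1, Col1a2, Pdgfrb, Pdgfra, Thy1 and Vim were above 0 in all 20 libraries. Their summed level was 1866 to 2157 TPM with EIPA, 3158 to 3723 TPM with vehicle at 0.2 mM, 7024 to 8452 TPM with IL-1a at 4 mM and 8163 to 8738 TPM without it. With EIPA, Col1a1, Col1a2 and Vim, which make up most of that sum, were lower (-1.36, -1.45 and -0.56 on the log2 scale), Pdgfra and Pdgfrb were higher (1.14 and 0.39), and Thy1 was not called by limma. At 0.2 mM against 4 mM all 6 were lower. In bulk RNA, fewer cells of a type and less RNA per cell cannot be told apart. Of 8 markers of other cell types, 1 passed the filter on low values, Cd68. The 8 summed to 7.42 to 9.12 TPM with EIPA, against 2.36 to 3.03 TPM in 0.2 mM vehicle, 2.40 to 3.51 TPM with IL-1a and 2.17 to 3.29 TPM in 4 mM vehicle. Sox10 was listed at 0 in all 20 libraries and Ptprc, the leukocyte antigen CD45, in 19. Cd68, a lysosomal glycoprotein of macrophages that other cells can also make, had 7.85 ± 0.670 TPM under EIPA and 2.35 ± 0.316 TPM in the 0.2 mM vehicle group (SD, n = 5). The part of these marker differences in the members' changes was not tested.

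All 78 members were expressed at 1 TPM or more in all 20 libraries. Group means in the 0.2 mM libraries with EIPA went from 22.1 TPM for Mrpl1 to 285 TPM for Mrps21. Over all 20 libraries the highest Mrpl levels were those of Mrpl52 (232 TPM) and Mrpl20 (170 TPM), and the highest Mrps level was that of Mrps21 (227 TPM). The order differed between groups: with EIPA the mean of Mrpl20 (190 TPM) was above that of Mrpl52 (178 TPM), in 4 mM vehicle that of Mrpl42 (172 TPM) was above that of Mrpl20 (153 TPM), and in 0.2 mM vehicle that of Mrps17 (220 TPM) was above that of Mrps21 (211 TPM). Replicates of a member were close together: the median coefficient of variation was 6.45% with EIPA, 7.01% and 5.85% in the vehicle groups at 0.2 and 4 mM, and 6.19% with IL-1a. Genes in the same range of TPM had medians of 6.63%, 7.14%, 6.24% and 8.03% in that order. The most variable member with EIPA was Mrpl17, with a coefficient of 36.2%.

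**Figure D1:**
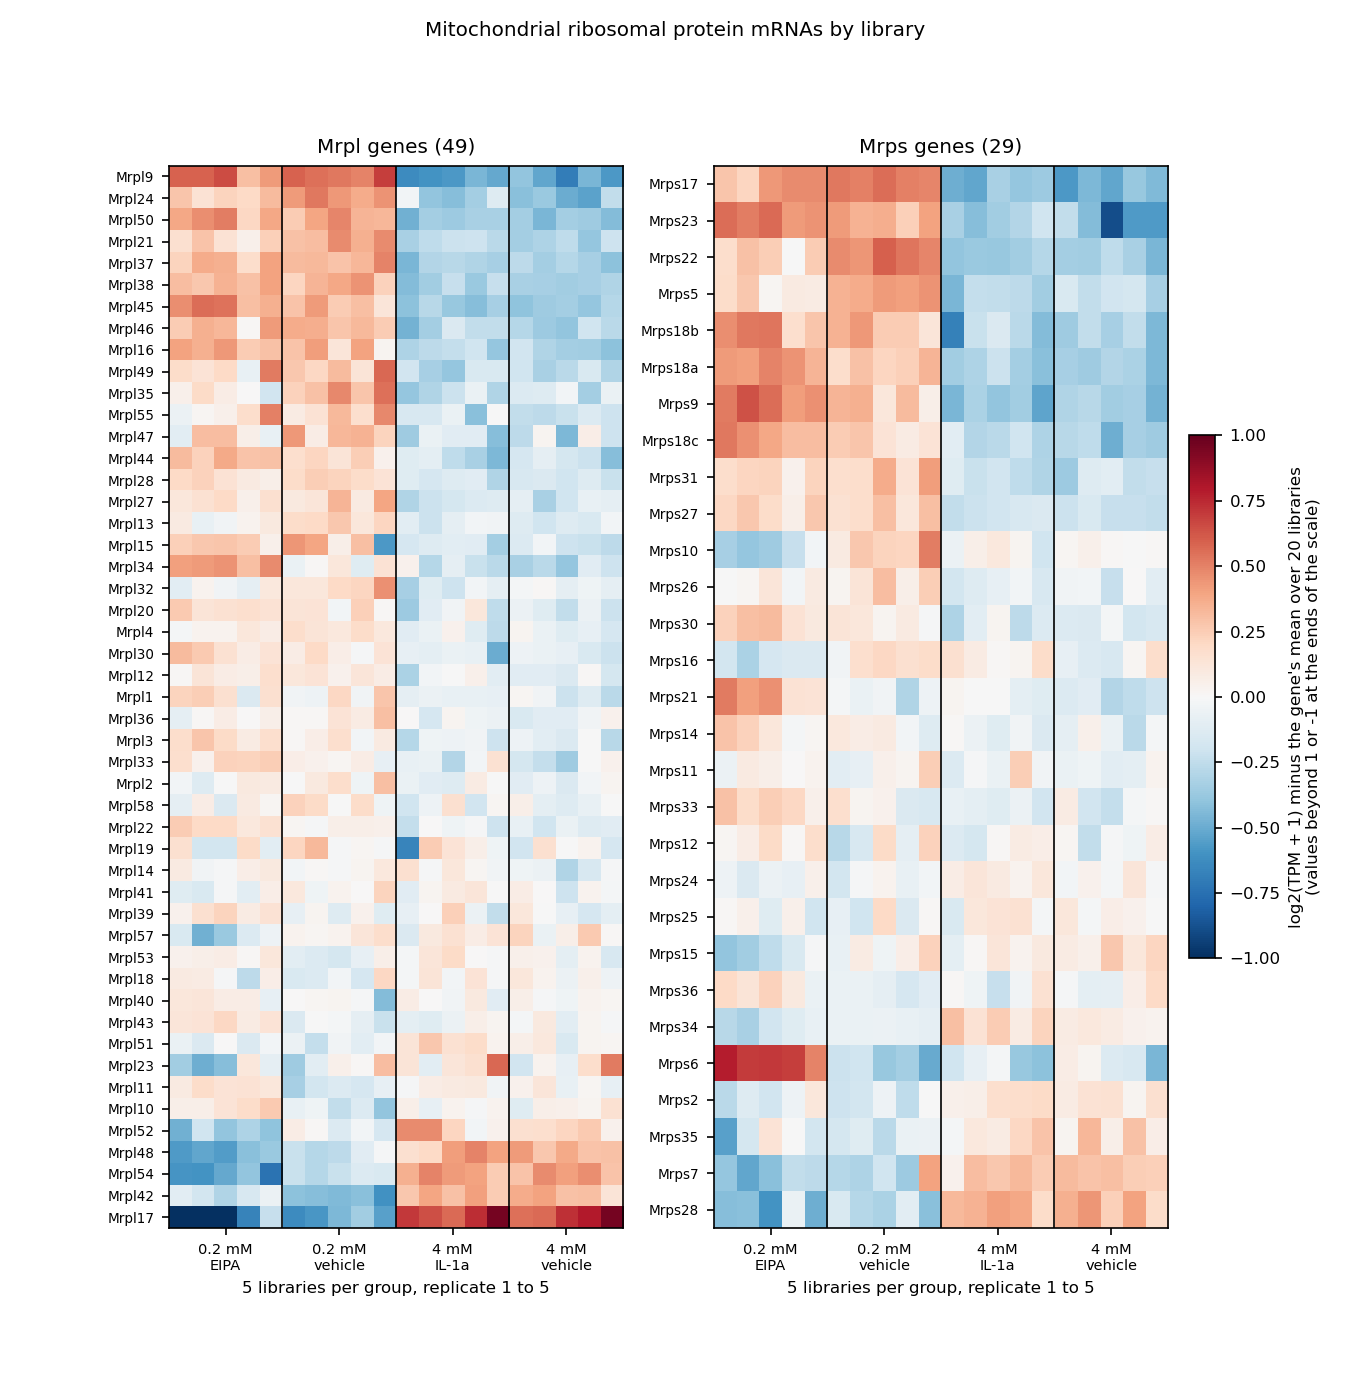
Level of each of the 49 Mrpl (left) and 29 Mrps (right) genes in 20 libraries, as log2(TPM + 1) minus the gene's mean, with columns ordered by group and replicate and rows by the difference between the vehicle groups. Red cells in the 0.2 mM columns mark genes such as Mrpl9 and Mrps17, blue cells in the same columns mark Mrpl17 and Mrpl42, and the 4 mM groups overlap in TPM for all 78 genes.

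The promoters of 4 members are shown because their genes moved furthest or hold a motif of interest; Mrps6 rose 2.02-fold with EIPA, Mrpl9 and Mrps22 were higher and Mrpl17 lower at 0.2 mM glutamine. Each stretch runs 5′ to 3′ on the gene's strand from 250 bases before the RefSeq start to 30 bases from it (GRCm38.p6). Capitals mark GCATGCGC on either strand, the core of the site of the nuclear respiratory factor NRF1, in Mrpl9 and Mrpl17, and CCGGAAGT, a site of ETS factors such as GABP, in Mrps22. In Mrpl9 the match reads on both strands and the matches overlap. The Mrps6 stretch holds no match.
Mrps6, chr16:92058086-92058365, plus strand: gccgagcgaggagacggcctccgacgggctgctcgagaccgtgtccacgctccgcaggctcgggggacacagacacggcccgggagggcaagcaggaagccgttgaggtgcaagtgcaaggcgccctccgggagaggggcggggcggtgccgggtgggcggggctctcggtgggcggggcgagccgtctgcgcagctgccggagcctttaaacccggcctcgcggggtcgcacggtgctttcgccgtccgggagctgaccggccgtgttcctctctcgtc
Mrpl9, chr3:94443086-94443365, plus strand: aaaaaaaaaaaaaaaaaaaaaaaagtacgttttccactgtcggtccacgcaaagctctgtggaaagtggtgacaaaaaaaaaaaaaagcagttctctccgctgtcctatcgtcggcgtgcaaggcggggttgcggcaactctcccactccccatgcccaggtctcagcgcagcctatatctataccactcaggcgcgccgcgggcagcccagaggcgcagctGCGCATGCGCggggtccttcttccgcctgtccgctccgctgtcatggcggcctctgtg
Mrpl17, chr7:105811058-105811337, minus strand: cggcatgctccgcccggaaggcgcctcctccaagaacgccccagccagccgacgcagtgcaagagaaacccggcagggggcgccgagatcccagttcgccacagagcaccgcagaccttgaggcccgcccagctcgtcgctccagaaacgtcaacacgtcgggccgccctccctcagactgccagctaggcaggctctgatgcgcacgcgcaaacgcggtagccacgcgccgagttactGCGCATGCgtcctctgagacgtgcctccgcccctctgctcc
Mrps22, chr9:98601650-98601929, minus strand: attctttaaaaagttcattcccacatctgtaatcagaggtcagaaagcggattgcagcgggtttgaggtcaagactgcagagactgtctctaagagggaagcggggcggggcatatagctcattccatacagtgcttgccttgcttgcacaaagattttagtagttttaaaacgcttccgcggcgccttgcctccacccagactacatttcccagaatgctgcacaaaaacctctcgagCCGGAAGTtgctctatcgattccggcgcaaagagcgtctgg

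NRF1, GABP and YY1 are transcription factors known to act on nuclear genes of mitochondrial function. RefSeq promoter windows of 250 bases before to 50 bases after the start were found for 69 members. CCGGAAGT occurred on either strand in 12 of them (17.4%), against 4.31% of 27025 genes with a window and 9.56% of the 9644 that passed the filter. A gene was counted when any of its windows matched, and a chromosome without members was left out. The NRF1 letters GCATGCGC occurred in 8 (11.6%), against 3.05% and 6.24%, and the YY1 letters AAGATGGCG in 8 (11.6%), against 1.64% and 3.73%. Cytosolic ribosomal protein genes (58 with a window) held the ETS, NRF1 and YY1 letters in 19.0%, 5.17% and 5.17%. For nuclear genes of the respiratory chain (69 with a window) the shares were 7.25%, 15.9% and 10.1%. The NRF1 letters were in 7 of the 43 Mrpl genes with a window (16.3%) and in 1 of the 26 Mrps genes (3.85%), a difference that was not tested. A match describes these letters only and was not tested as a site.

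Glutamine was the condition along which the members differed most. The comparison of vehicle libraries at 0.2 and 4 mM asks what glutamine shortage alone does. Of the 78 members, 46 were higher at 0.2 mM (59%), 12 were lower (15.4%) and 20 were not called (limma on log2(TPM + 1), adjusted p under 0.05 over 12350 genes). Among all genes tested, 73.3% were called, 45.4% higher and 27.9% lower. The median log2 fold change was 0.18 over the members and 0.14 over all genes tested, so the members lay 0.04 above the median gene. After median-of-ratios scaling, which sets the median gene near 0, 27 members were higher and 22 lower, beside 35.5% and 35.9% of all genes. The vehicle groups did not overlap in TPM for 44 members, 36 higher and 8 lower (56.4%, against 59.9% of all genes). The median size of the change, whatever its sign, was 0.24 for members and 0.40 for all genes tested.

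Mrpl9 encodes the homologue of a bacterial large-subunit protein. Its levels were 147, 143, 141, 138 and 158 TPM in replicates 1 to 5 at 0.2 mM, and 73.9, 68.0, 60.2, 70.8 and 65.4 TPM at 4 mM. Every 0.2 mM library was far above every 4 mM library. The means were 145 ± 7.71 and 67.6 ± 5.24 TPM (SD, n = 5), which differed by 1.10 ± 0.06 on the log2 scale (SE; adjusted p = 5.3e-12 by limma).

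Mrps17, a small-subunit protein with a bacterial homologue, was at 221, 218, 226, 218 and 215 TPM at 0.2 mM and at 103, 112, 107, 117 and 112 TPM at 4 mM. The groups were far apart, with a log2 fold change of 0.99 ± 0.05 (limma adjusted p = 1.6e-12). Mrps22, a small-subunit protein specific to mitochondria whose gene is mutated in inherited mitochondrial disease, was at 82.7, 81.2, 90.3, 86.6 and 83.7 TPM at 0.2 mM. At 4 mM it was at 46.7, 46.5, 49.7, 47.2 and 43.0 TPM, again without overlap (0.85 ± 0.05, limma adjusted p = 1.4e-11). Mrps23, also without a bacterial homologue, rose from 106 ± 16.9 to 196 ± 9.84 TPM (0.90 ± 0.08) and Mrpl24 from 68.0 ± 5.51 to 124 ± 4.93 TPM (0.86 ± 0.07). Mrps18a, Mrps18b and Mrps18c, paralogues that each descend from the same bacterial protein, were higher by 0.60, 0.61 and 0.52 on the log2 scale, and each was called.

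The fall at 0.2 mM was deepest for Mrpl17, a large-subunit protein with a bacterial homologue. It was at 49.8, 51.5, 56.6, 60.8 and 52.9 TPM at 0.2 mM and at 114, 115, 129, 135 and 151 TPM at 4 mM. The lowest 4 mM library stood well above the highest 0.2 mM library, and the log2 fold change was -1.23 ± 0.15 (limma adjusted p = 3.1e-07). Mrpl42, specific to the mitochondrial ribosome, was at 105, 104, 103, 104 and 91.7 TPM at 0.2 mM and at 181, 185, 171, 172 and 153 TPM at 4 mM. The groups were separate, and the change was -0.76 ± 0.06 (limma adjusted p = 1.6e-10). Mrpl54 (-0.59 ± 0.06), Mrps28 (-0.58 ± 0.08) and Mrpl48 (-0.51 ± 0.07) were also lower in all 0.2 mM vehicle libraries than in any 4 mM vehicle library. Mrpl9 and Mrpl17 were the 2 of 78 members that changed at least 2-fold, beside 1373 of the 12350 genes tested. After median-of-ratios scaling 1 member did, beside 1351 genes.

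In the GENCODE M21 annotation of mm10, Mrpl9 (ENSMUSG00000028140) lies on the plus strand at chr3:94443318-94451130 and Mrps17 (ENSMUSG00000034211) on the plus strand at chr5:129715497-129722556. Mrpl17 (ENSMUSG00000030879) lies on the minus strand at chr7:105803206-105811099 and Mrpl42 (ENSMUSG00000062981) on the minus strand at chr10:95480805-95501940. The 78 genes lie on 17 chromosomes, with 11 on chromosome 11, 8 on chromosome 17 and 7 on chromosome 6.

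**Figure D2:**
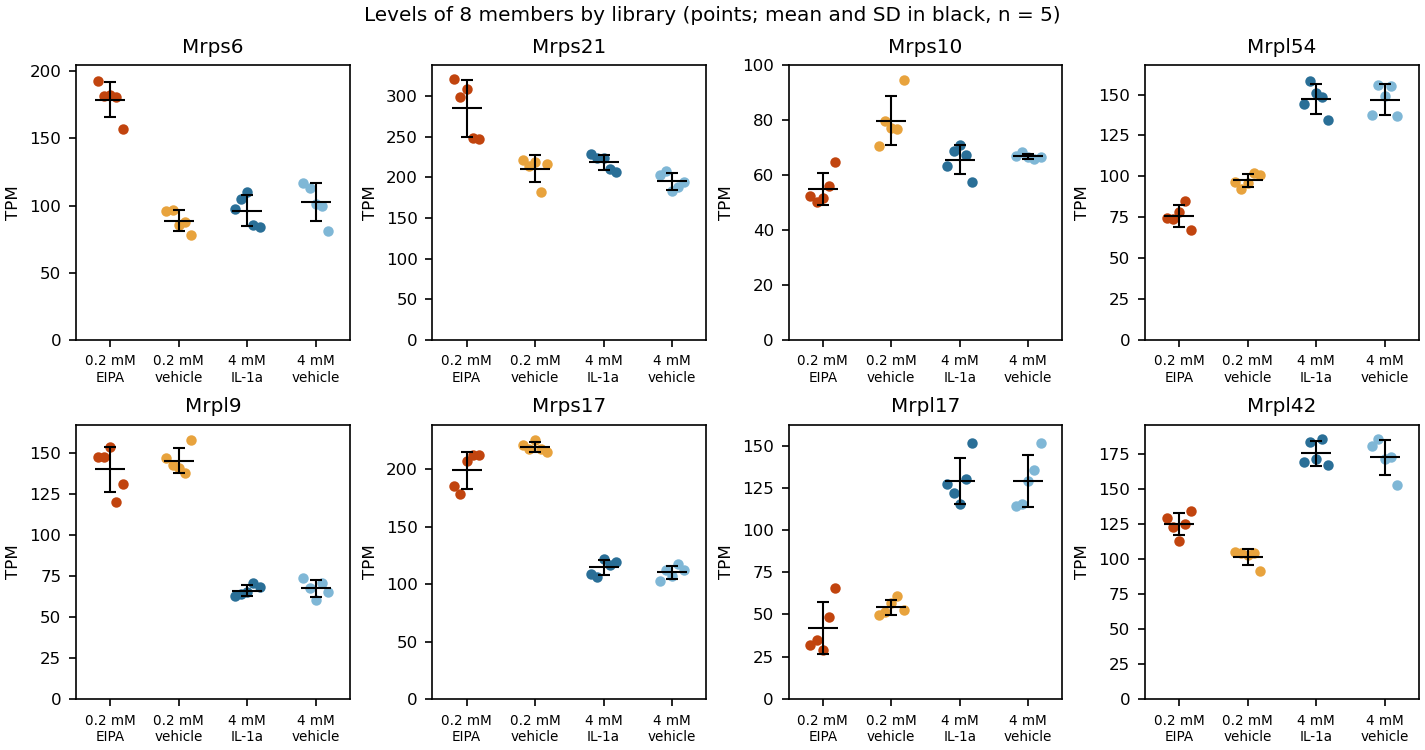
TPM of 8 members in every library (points), with the group mean and SD (n = 5) in black and the axis starting at 0. Mrps6 and Mrps21 are higher and Mrps10 and Mrpl54 lower with EIPA than with vehicle at 0.2 mM, while Mrpl9, Mrps17, Mrpl17 and Mrpl42 differ mainly between the glutamine levels.

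Among members with defined roles in the ribosome, Mrpl12, the stalk protein that also binds the mitochondrial RNA polymerase, was at 149 ± 3.76 TPM at 0.2 mM and 130 ± 6.52 TPM at 4 mM (0.20 ± 0.06, limma adjusted p = 0.0027). Mrpl10 and Mrpl11, which form the base of the same stalk, were lower at 0.2 mM, by -0.21 ± 0.06 and -0.18 ± 0.05. Mrpl27, near the peptidyl transferase centre, was higher (0.36 ± 0.06). Mrps7, of the small-subunit head, was lower (-0.43 ± 0.10), and Mrps12, of the decoding centre, was at 52.3 ± 8.32 and 51.2 ± 4.25 TPM and was not called. Mrps34, needed for the stability of the small subunit, was lower by a small margin (-0.14 ± 0.05). Relative to the median gene the change of Mrpl12 was 0.07, and it was not called after median-of-ratios scaling (limma adjusted p = 0.45). The same scaling ended the calls of Mrpl20, Mrpl33, Mrpl34, Mrpl36, Mrpl58, Mrps10, Mrps16 and Mrps30, each of which had been called higher at 0.2 mM.

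The libraries with EIPA were set against those with vehicle at 0.2 mM glutamine, which compares exposure to EIPA during shortage. These libraries do not measure macropinocytosis, and no group had EIPA at 4 mM. The members split evenly: 16 were higher with EIPA (20.5%), 17 were lower (21.8%) and 45 were not called by limma. Among all genes tested 48.5% were called, 27.4% higher and 21.1% lower. The median log2 fold change was -0.01 for members and 0.02 for all genes tested. After median-of-ratios scaling 12 members were higher and 21 lower, beside 23.6% and 24% of all genes. The groups did not overlap for 24 members, 10 higher and 14 lower (30.8%, against 34.6% of all genes). The median member stood above the median gene by 1.56 ± 0.03 on the log2 scale with EIPA and by 1.65 ± 0.02 with vehicle (SD, n = 5), and the groups did not overlap. At 4 mM it stood above by 1.62 ± 0.04 with IL-1a and 1.61 ± 0.04 without. These are differences between medians of levels in each library. Taken gene by gene, the median fold change with EIPA was -0.03 for the members relative to all genes tested.

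Mrps6 stood apart from the other members. It encodes a small-subunit protein with a bacterial homologue. With EIPA it was at 193, 181, 183, 181 and 157 TPM, and with vehicle at 95.8, 96.9, 85.4, 87.6 and 78.1 TPM. The lowest EIPA library was far above the highest vehicle library. The means were 179 ± 13.1 and 88.8 ± 7.78 TPM (SD, n = 5). They differed by 1.005 ± 0.09 on the log2 scale (SE, adjusted p = 2.3e-08 by limma). This was the only change of at least 2-fold among the 78 members in this comparison, beside 392 of the 12350 genes tested. After median-of-ratios scaling the largest rise among the members was 0.97, and 0 members reached 2-fold, beside 387 genes. At 4 mM Mrps6 was at 102 ± 14.1 TPM in the vehicle group and at 96.2 ± 11.6 TPM in the IL-1a group.

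Mrps6 (ENSMUSG00000039680, plus strand, chr16:92058270-92112227) shares 159 exonic bases, 10.4% of its exons, with Slc5a3, the sodium-dependent myo-inositol transporter, on the same strand. The shared bases are chr16:92058322-92058480, and the RefSeq starts of the genes are 14 bases apart, so the Mrps6 stretch above spans both. Slc5a3 was at 21.8, 22.3, 18.02, 23.5 and 17.1 TPM with EIPA and at 5.53, 4.97, 3.92, 5.09 and 5.37 TPM with vehicle. The EIPA libraries were all above the vehicle libraries, with a log2 fold change of 1.85 ± 0.16 (limma adjusted p = 8.8e-09). Reads from the shared bases can belong to either gene, and their part in the Mrps6 change was not tested. Mrps6 also shares 305 exonic bases (19.9%) with Gm49711 on the same strand, a gene without TPM values.

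Mrps21, another small-subunit protein with a bacterial homologue, was at 322, 299, 309, 248.8 and 247 TPM with EIPA and at 221, 215, 219, 182 and 217 TPM with vehicle. Replicates 4 and 5 of the EIPA group were the lowest of it and still above every vehicle library (0.43 ± 0.07, limma adjusted p = 4.6e-05). Mrpl34 rose from 96.3 ± 7.61 to 127 ± 5.75 TPM (0.40 ± 0.07). The stalk-base genes Mrpl10 (0.32 ± 0.06) and Mrpl11 (0.31 ± 0.05) rose as well. Mrpl42 was also higher with EIPA, at 125 ± 7.91 against 101 ± 5.49 TPM (0.30 ± 0.06, limma adjusted p = 0.00021).

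Of the members that fell with EIPA, Mrps10, a small-subunit protein with a bacterial homologue, changed most. Its levels were 52.3, 50.2, 51.5, 56.2 and 64.7 TPM with EIPA and 70.4, 79.8, 77.3, 76.9 and 94.8 TPM with vehicle. The groups did not overlap, and replicate 5 was highest in each (-0.53 ± 0.07, limma adjusted p = 7.1e-06). Mrpl54, a large-subunit protein specific to mitochondria, was at 74.4, 74.0, 78.5, 85.1 and 67.0 TPM with EIPA and at 96.3, 92.0, 96.2, 102 and 101 TPM with vehicle. The groups were again separate (-0.36 ± 0.06, limma adjusted p = 4.1e-05). Mrpl35 (-0.34 ± 0.08), Mrps16 (-0.33 ± 0.06), Mrpl57 (-0.32 ± 0.08), Mrps22 (-0.31 ± 0.05) and Mrpl48 (-0.31 ± 0.07) fell by similar amounts. Mrpl52, the Mrpl mRNA with the highest mean in the vehicle group, fell from 221 ± 15.4 to 178 ± 13.4 TPM (-0.31 ± 0.08).

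Mrps10 (plus strand, chr17:47368887-47381417) and Mrpl54 (minus strand, chr10:81264713-81266934) lie on other chromosomes than Mrps6. The comparisons with EIPA and between glutamine levels share the 0.2 mM vehicle libraries, so the values are given side by side only. Mrps22 had -0.31 with EIPA and 0.85 between glutamine levels, Mrpl24 -0.21 and 0.86, Mrpl42 0.30 and -0.76, Mrpl10 0.32 and -0.21, Mrpl54 -0.36 and -0.59, Mrpl48 -0.31 and -0.51, and Mrpl9 -0.06 and 1.10.

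**Figure D3:**
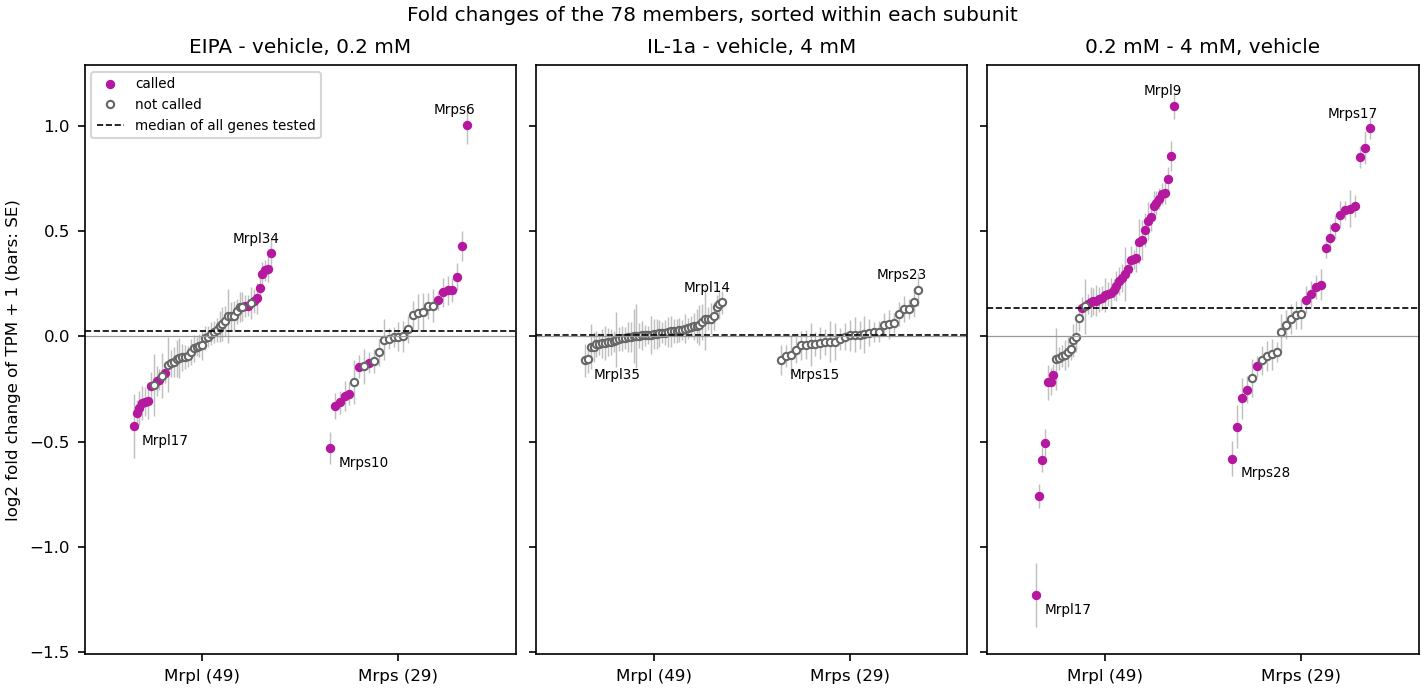
Log2 fold change of each member in 3 comparisons (points, with SE as bars), sorted within the Mrpl and Mrps genes, filled where limma called it; the dashed line is the median of all genes tested. Changes with EIPA spread from -0.53 to 1.005 around 0, those with IL-1a stay near 0 with none filled, and those between glutamine levels go from -1.23 to 1.10.

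IL-1a was compared with vehicle at 4 mM glutamine, the comparison of an inflammatory stimulus in full medium. No member was called by limma in either direction, beside 0.283% of all genes tested (35 of 12350). At an unadjusted p under 0.05 there were 6 of the 78 members, beside 744 of the 12350 genes tested. After median-of-ratios scaling there were 5, beside 778 genes, also with no member called. The groups overlapped in TPM for all 78 members, while 1.38% of all genes had groups that did not overlap. The median change was 0.01 for members and 0.01 for all genes tested. Mrps23 had the largest change, 0.22 ± 0.08, at 123 ± 7.02 TPM with IL-1a and 106 ± 16.9 TPM with vehicle (limma adjusted p = 0.51). The smallest adjusted p was that of Mrpl14, 0.48 (limma, log2 fold change 0.16), a member named after its values were seen.

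Large and small subunits were then compared. Mrpl genes summed to 4391 ± 70.7 TPM with EIPA, 4425 ± 20.6 TPM with vehicle at 0.2 mM, 4037 ± 81.7 TPM with IL-1a at 4 mM and 3964 ± 78.1 TPM without it (SD, n = 5). Mrps genes summed to 2693 ± 76.2, 2538 ± 57.1, 2122 ± 41.1 and 2086 ± 46.8 TPM in that order. All members together made up 0.696% of TPM at 0.2 mM and 0.605% at 4 mM with vehicle, 15.1% more at 0.2 mM, with no overlap between the groups. Leaving mitochondrially encoded mRNAs out of the total, the difference was 13.2%. The median gene tested was also higher at 0.2 mM, by 0.14 on the log2 scale and without overlap. Relative to it the median member was 0.04 higher, and the vehicle groups overlapped.

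With EIPA the Mrps sum was 2753, 2716, 2772, 2613 and 2613 TPM in replicates 1 to 5, and with vehicle 2532, 2563, 2572, 2441 and 2582 TPM. The groups did not overlap, and the EIPA mean was 155 TPM higher. Mrps6 and Mrps21 were left out after their values were seen, as they rose with EIPA, so a smaller difference was fixed by the choice. Without Mrps6 the difference in the Mrps sum was 65.1 TPM and the groups overlapped, and without both it was -9.15 TPM. Of the Mrps genes 7 were called higher and 7 lower by limma, so both directions enter the sum. The Mrpl share of the members' TPM was 62.0% ± 0.744 with EIPA and 63.6% ± 0.496 with vehicle at 0.2 mM, and at 4 mM it was 65.5% ± 0.252 with the cytokine and 65.5% ± 0.286 without.

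With every member weighted alike, the subunits were close in level. The mean log2(TPM + 1) of Mrpl genes less that of Mrps genes was 0.05 ± 0.03 with EIPA, 0.10 ± 0.03 with vehicle at 0.2 mM, 0.11 ± 0.01 with IL-1a at 4 mM and 0.11 ± 0.02 without it, with overlap in each comparison. The overlap between EIPA and vehicle came from EIPA replicate 5 alone, at 0.10, while the other 4 EIPA libraries (0.029 to 0.050) lay below every vehicle library (0.073 to 0.14). Between glutamine levels the mean log2 level was higher by 0.18 for Mrpl and 0.19 for Mrps genes, beside 0.14 for the median gene. With EIPA the difference between subunits changed by -0.05 when means were taken and by 0.15 when medians were taken, so no direction is given. By count, 9 Mrpl genes were higher and 10 lower with EIPA, and 7 Mrps genes were higher and 7 lower, beside 27.4% and 21.1% of all genes tested. After median-of-ratios scaling these were 5 and 12 Mrpl genes, and 7 and 9 Mrps genes. At 0.2 mM against 4 mM, 32 Mrpl genes were higher and 7 lower, and 14 Mrps genes were higher and 5 lower, beside 45.4% and 27.9% of all genes. Those counts became 17 and 12, and 10 and 10, after median-of-ratios scaling.

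**Figure D4:**
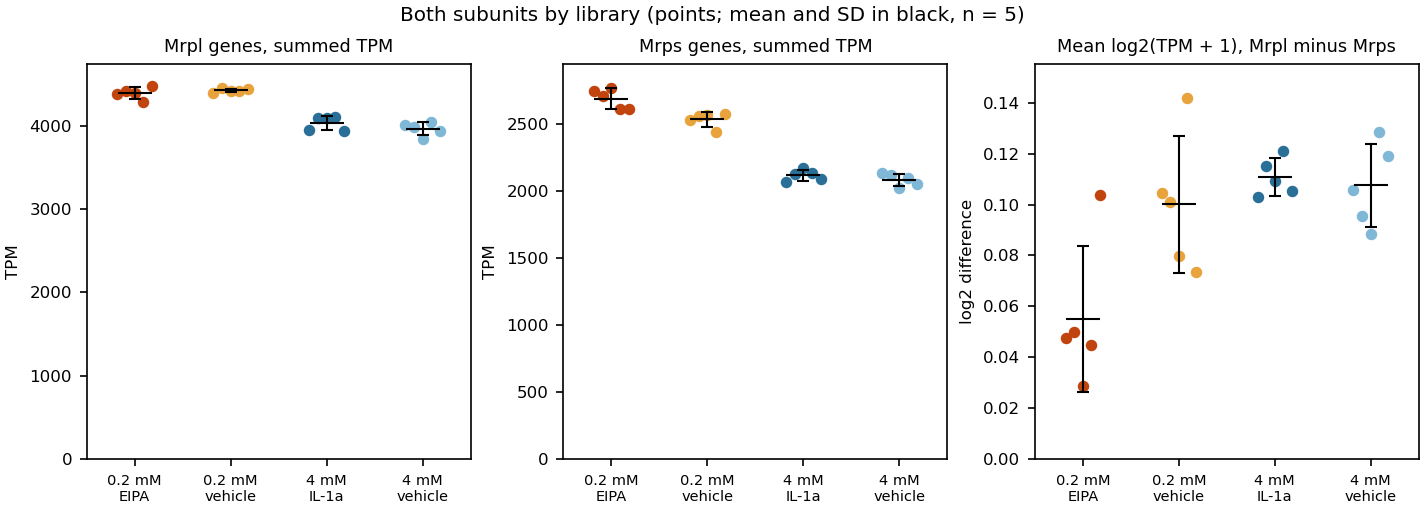
Summed TPM of Mrpl genes (left) and Mrps genes (middle) and the mean log2(TPM + 1) of Mrpl less Mrps genes (right) in every library, with group mean and SD (n = 5) in black; axes start at 0. Both sums are higher in the 0.2 mM groups, only the Mrps sum separates EIPA from vehicle, and the points of the right panel overlap between groups.

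The members were also split by origin. Of 47 members with a bacterial homologue, 31 were higher and 6 lower at 0.2 mM glutamine (median 0.20), and of the 31 others 15 were higher and 6 lower (median 0.09), beside 45.4% and 27.9% of all genes. After median-of-ratios scaling these were 15 and 10, and 12 and 12. With EIPA the counts were 9 higher and 11 lower, and 7 higher and 6 lower, beside 27.4% and 21.1% of all genes. They were 8 and 13, and 4 and 8, after scaling, beside 23.6% and 24% of all genes. Of the 26 members with at least 1 of the 3 promoter motifs, 15 were higher and 5 lower at 0.2 mM, and of the 43 with a window and no motif 27 were higher and 3 lower. With EIPA these were 7 and 6, and 9 and 8, beside 27.4% and 21.1% of all genes.

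Mitochondrial ribosomes hold proteins with other names. Of 5 such genes, Chchd1, a small-subunit protein, was higher at 0.2 mM (0.52 ± 0.05) and lower with EIPA (-0.27 ± 0.05), each called by limma. Dap3, a GTP-binding protein of the small subunit, was lower at 0.2 mM (-0.23 ± 0.05), and Gadd45gip1, of the large subunit, higher (0.43 ± 0.07). With EIPA, Ptcd3 was higher (0.17 ± 0.06) and Aurkaip1 lower (-0.11 ± 0.04). After median-of-ratios scaling 0 of these genes were higher and 2 lower with EIPA, and 2 were higher and 3 lower at 0.2 mM. Scaled shares over all genes tested were 23.6% and 24% with EIPA, and 35.5% and 35.9% at 0.2 mM.

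Genes that build the ribosome were mostly higher at 0.2 mM glutamine. Of 26 assembly genes, which modify the rRNA or join the subunits, 22 were higher and 1 lower (median 0.50), and 20 and 1 after median-of-ratios scaling. The median is a description, and its difference from that of the ribosomal proteins was not tested. Shares over all genes tested were 45.4% higher and 27.9% lower at 0.2 mM, or 35.5% and 35.9% after scaling. The methyltransferase Trmt61b went from 8.65 ± 0.794 to 26.7 ± 1.24 TPM (1.52 ± 0.09) and the pseudouridine synthase Rpusd4 from 19.3 ± 1.07 to 53.3 ± 4.85 TPM (1.42 ± 0.09). All 12 genes of mitochondrial DNA transcription and maintenance were higher (median 0.67), 9 of them after scaling, among them the packaging factor Tfam (0.34 ± 0.10) and the polymerase Polrmt (0.20 ± 0.08). Of 19 translation factors, 7 were higher and 2 lower (6 and 5 after scaling), the insertase Oxa1l (-0.35 ± 0.08) and the peptide deformylase Pdf (-0.20 ± 0.08).

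With EIPA, 4 assembly genes were higher and 4 lower, with Ngrn (0.45 ± 0.10) and Mterf4 (0.43 ± 0.08) rising and the rRNA methyltransferase Tfb1m (-0.62 ± 0.10) and the GTPase Mtg1 (-0.53 ± 0.14) falling. The translation factors had 4 higher and 5 lower (3 and 6 after scaling), and the mitochondrial DNA genes 3 higher and 2 lower. Shares over all genes tested were 27.4% higher and 21.1% lower with EIPA, or 23.6% and 24% after scaling. With IL-1a limma called 0 genes in these 3 lists, and 1 gene of each had an unadjusted p under 0.05. Of all 12350 genes tested, 744 had such a p.

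Mitochondrial ribosomes translate the mRNAs of the mitochondrial genome. All 13 mitochondrially encoded mRNAs were lower with EIPA (median -0.72), and they took 5.69% ± 0.630 of TPM with EIPA against 8.87% ± 0.276 with vehicle. Between glutamine levels 2 were higher and 7 lower (median -0.18), or 0 and 8 after median-of-ratios scaling. Of 82 tested nuclear genes of the respiratory chain and ATP synthase, 17 were higher and 21 lower with EIPA, and 32 and 27 at 0.2 mM. Those became 13 and 30, and 17 and 42, after scaling. Beside these, 27.4% of all genes tested were higher and 21.1% lower with EIPA, and 45.4% and 27.9% at 0.2 mM. After scaling those shares were 23.6% and 24%, and 35.5% and 35.9%. The mitochondrial rRNAs were not analysed here.

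Cytosolic ribosomal proteins, which make up the ribosome of the cytoplasm, had a different count with EIPA. Of 79 genes, 52 were higher and 5 lower (median 0.18), or 44 and 5 after median-of-ratios scaling, beside 16 and 17 of the 78 mitochondrial members. At 0.2 mM against 4 mM they had 44 higher and 19 lower (median 0.21), or 31 and 27 after scaling, beside 46 and 12, or 27 and 22, of the mitochondrial members. The differences between these lists are given as counts and were not tested. Shares over all genes tested were 27.4% higher and 21.1% lower with EIPA, or 23.6% and 24% after scaling. At 0.2 mM they were 45.4% and 27.9%, or 35.5% and 35.9%.

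**Figure D5:**
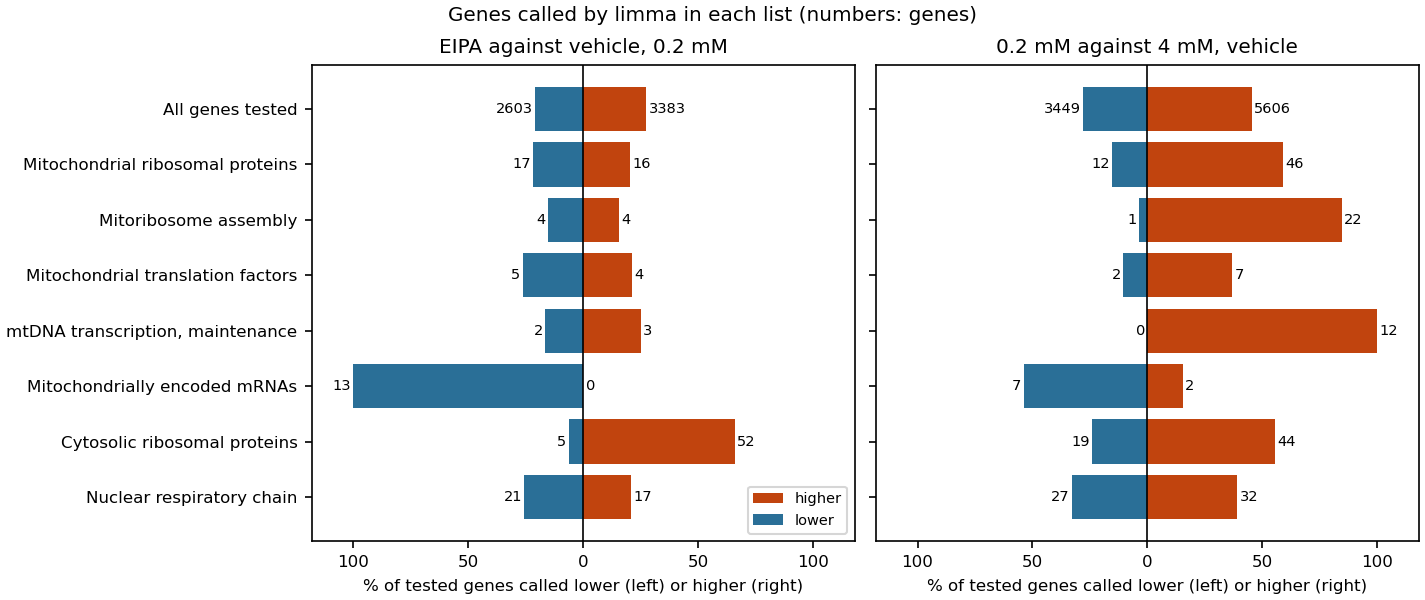
Percentage of the tested genes in each list called higher (right of 0) or lower (left of 0) by limma, with the number of genes at each bar, for EIPA (left) and for glutamine (right). With EIPA the mitochondrial ribosomal proteins split 16 to 17 while 52 of 79 cytosolic ones are higher and all 13 mitochondrially encoded mRNAs lower; at 0.2 mM glutamine 46 members, 22 of 26 assembly genes and all 12 mitochondrial DNA genes are higher.

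Of 10 regulators of mitochondrial gene expression, 7 were higher and 0 lower at 0.2 mM glutamine, and 2 were higher and 4 lower with EIPA. After median-of-ratios scaling these were 6 and 0, and 2 and 4. Beside them, 45.4% of all genes tested were higher and 27.9% lower at 0.2 mM, and 27.4% and 21.1% with EIPA. Myc, a transcription factor that drives ribosome synthesis, was at 312 ± 80.0 TPM at 0.2 mM and 98.7 ± 6.43 TPM at 4 mM (1.62 ± 0.15), and at 203 ± 24.2 TPM with EIPA (-0.59 ± 0.15). Nrf1 (0.30 ± 0.06), Gabpa (0.43 ± 0.04), Gabpb1 (0.51 ± 0.07) and the coactivators Pprc1 (0.40 ± 0.07) and Ppargc1b (0.45 ± 0.10) were also higher at 0.2 mM. Nrf1 (-0.24 ± 0.06), Gabpb1 (-0.45 ± 0.07) and Pprc1 (-0.32 ± 0.07) were lower with EIPA. Ppargc1a, the coactivator PGC-1 alpha, was at 5.58 ± 0.489 TPM with EIPA and 1.75 ± 0.40 TPM with vehicle (1.27 ± 0.12, limma adjusted p = 5.9e-08). Esrra, an orphan nuclear receptor that works with it, also rose (0.21 ± 0.05). Yy1 was not called in any comparison.

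Several members share exonic bases with other genes, 33 in all and 17 over at least 10% of their exons, and whether reads were counted by strand is not given in the sources used here. Mrps34 shares 37.0% of its exons with Nme3 on the same strand, and Nme3 fell at 0.2 mM (-1.15 ± 0.17). Mrpl46 and Mrps11 overlap by 173 bases on opposite strands, with changes of 0.62 ± 0.07 and 0.08 ± 0.07 at 0.2 mM. Mrpl43 overlaps Twnk, the mitochondrial DNA helicase, which rose by 0.98 ± 0.07 at 0.2 mM. Mrpl24 overlaps Rrnad1, which changed by 0.75 ± 0.10 beside the 0.86 of Mrpl24. The part of shared reads in these values was not tested.

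Some calls lay near the threshold and were lost when 1 library was left out, with the direction kept. Mrpl17 was lower with EIPA (-0.42 ± 0.15, limma adjusted p = 0.026), at 32.0, 34.8, 29.02, 48.4 and 65.8 TPM. Its change was -0.60 to -0.31 over the removals, and its limma adjusted p was 0.079, 0.066 and 0.092 without EIPA replicates 1, 2 and 3, and 0.050 and 0.061 without vehicle replicates 3 and 4. Mrps17 fell with EIPA (-0.14 ± 0.05, and -0.17 to -0.10 over the removals), but its limma adjusted p was 0.090 and 0.11 without EIPA replicates 1 and 2, and 0.055 and 0.068 without vehicle replicates 1 and 3. Mrps34 (-0.13 ± 0.05 with EIPA, and -0.16 to -0.093 over the removals) lost its call without EIPA replicate 1, 2 or 3 (limma adjusted p = 0.11, 0.13 and 0.065). It also lost it without vehicle replicate 1, 2, 3 or 4 (limma adjusted p = 0.065, 0.068, 0.074 and 0.061).

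Between glutamine levels, Mrpl52 (-0.22 ± 0.08, and -0.25 to -0.19 over the removals) was not called by limma without 0.2 mM vehicle replicate 3 or 5 or 4 mM vehicle replicate 4 (adjusted p = 0.058, 0.063 and 0.059). Mrps16 (0.17 ± 0.06, and 0.14 to 0.23) was not called by limma without 4 mM vehicle replicate 2 or 3 (adjusted p = 0.052 and 0.057). Mrpl33 (0.17 ± 0.07, and 0.12 to 0.22) was not called by limma without 0.2 mM vehicle replicate 1, 2, 3 or 4 (adjusted p = 0.086, 0.076, 0.069 and 0.088) or 4 mM vehicle replicate 1, 2 or 3 (0.082, 0.11 and 0.16). Mrpl58, a peptidyl-tRNA hydrolase of the ribosome (0.16 ± 0.07, and 0.13 to 0.20), was not called by limma without 0.2 mM vehicle replicate 1, 2 or 4 (adjusted p = 0.12, 0.10 and 0.097) or 4 mM vehicle replicate 2, 3 or 4 (0.090, 0.10 and 0.077).

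Leaving out a library also brought calls. Mrps6 (-0.20 ± 0.09 at 0.2 mM, limma adjusted p = 0.060) was called without 0.2 mM vehicle replicate 1 or 2 or 4 mM vehicle replicate 5 (changes of -0.23, -0.23 and -0.28, limma adjusted p = 0.047, 0.042 and 0.0057), and after median-of-ratios scaling (0.0038). Mrps21 (0.11 ± 0.07) was called at 0.2 mM without vehicle replicate 4 of that group (0.16, limma adjusted p = 0.043). With EIPA, Mrps28 (-0.14 ± 0.08) was called without EIPA replicate 4 (-0.23, limma adjusted p = 0.013). Mrps30 (0.15 ± 0.06) was called without EIPA replicate 5 (0.17, limma adjusted p = 0.034), and Mrps7 (-0.22 ± 0.10) without vehicle replicate 4 (-0.27, limma adjusted p = 0.045).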

How the data were processed

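RNA was extracted with a PureLink kit, polyadenylated RNA was made into Watchmaker libraries and both ends were read for 75 bases on an AVITI, per the labels' protocols. RSEM and mm10 are named per the submitters' processing notes, with versions, aligner, annotation and strand setting not given in the sources used here. TPM, deposited by the authors for 32285 genes in 20 libraries, summed in each to 999999.47 to 1000000.84, so depth is unknown and no counting interval is given.

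The 12350 genes that reached 1 TPM in 5 or more libraries were fitted as log2(TPM + 1) by limma 3.58.1 (R 4.3.3), with 1 model of 4 groups, 20 libraries and an intensity trend. Two-sided p-values, with Benjamini-Hochberg adjustment over those genes, were called under 0.05. Fold changes carry their SE, TPM values their SD, and the added 1 TPM understates changes of low genes. Subunit sums and means, medians and motif shares are descriptions without a test. On simulated data of 12130 genes, 99% of genes changed by 1 on the log2 scale were recovered in the comparison of glutamine levels and 92% of those changed by 0.5. The simulation changed 100 genes by each amount, chosen away from low levels, and left the rest unmoved. In the real comparison 73.3% of genes were called, and changes smaller than 0.5 were not simulated, so these rates need not hold there. Members were all protein-coding Mrpl and Mrps symbols. Members named were up to 5 in each direction and comparison with the largest called change and no overlap between groups, the 2 highest in each subunit, and a panel with known roles. Other genes named followed the same kind of rule (the 2 largest changes in each direction over 3 lists, and all of 2 short lists), and genes sharing exons with members were named for that overlap. The members, lists and the libraries left out as standing apart were chosen with earlier results of these data known. Another marker gene of the list for other cell types is not reported here. Promoter sequences are from RefSeq (GRCm38.p6). Alternatives were another pseudocount (0.1), no filter, a mean of at least 5 TPM, median-of-ratios scaling, centring on the median gene, leaving out the 13 mitochondrially encoded genes, only the 2 groups compared, no trend, a replicate block and leaving out libraries.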

Additional observations from a re-analysis of the deposited data

Results flagged for a closer look

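In a group of 5 libraries a value was marked when its gap to the nearest other value exceeded 0.71 of the group's range, a limit that chance passes in about 1 in 20 groups. Of 148 groups of values, 9 were marked. Mrps7 at 0.2 mM vehicle was at 77.66 TPM in replicate 5 and at 45.38 to 50.98 TPM in the others, and with IL-1a at 60.48 TPM in replicate 1 against 69.99 to 73.58 TPM. Mrps21 at 0.2 mM vehicle was at 181.87 TPM in replicate 4 against 214.68 to 221.47 TPM. Mrpl42 at 0.2 mM vehicle was at 91.73 TPM in replicate 5 against 102.73 to 104.76 TPM. Mrps16 was at 45.09 TPM in 0.2 mM vehicle replicate 1 against 51.69 to 53.47 TPM, and at 36.77 TPM in EIPA replicate 2 against 40.41 to 41.66 TPM. Mrpl20 was at 202.52 TPM in EIPA replicate 1 against 184.75 to 189.2 TPM. Mrps30 was at 25.4 TPM in 4 mM vehicle replicate 3 against 22.53 to 23.35 TPM. The mean log2 level of Mrpl less Mrps genes was 0.103946 in EIPA replicate 5 against 0.0286214 to 0.0498786 in the others.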

How the results depend on the processing

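Counts over all 78 members stayed within 1.5 times under every alternative run except scaling between the glutamine levels, where median-of-ratios scaling and centring on the median gene each gave 27 higher and 22 lower in place of 46 and 12. Within the members, median-of-ratios scaling also took Mrpl genes higher with EIPA from 9 to 5 and members without a bacterial homologue higher with EIPA from 7 to 4. Without the filter, the median change of the members between glutamine levels lay 0.17 above that of all genes. Leaving the filter out adds genes of low level to that median. With EIPA the members were at -0.0054 relative to the median gene without the filter. Genes called with IL-1a were 19 with only the 2 groups compared. Taking medians over members moved the difference between Mrpl and Mrps genes to 0.15 with EIPA, 0.049 with IL-1a and 0.091 between glutamine levels, and leaving out Mrps6, an alternative chosen after seeing the data, moved it to -0.0100 with EIPA. Leaving out 1 library at a time gave 13 to 16 higher and 14 to 18 lower members with EIPA, 39 to 44 and 11 to 13 between glutamine levels, and 0 and 0 with IL-1a.

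Named members were compared where limma called the change in the main fit or in the alternative, and among those no direction reversed. Directions of changes called in neither were not compared. Leaving out 1 library ended 34 calls and brought 7. The other alternatives kept 450 values on their side of the threshold, ended 29 calls and brought 17. With the replicate block, limma called 18 members higher and 18 lower with EIPA, 45 and 13 between glutamine levels and 0 with IL-1a. It ended the call of Mrpl58 between glutamine levels (adjusted p = 0.067) and brought those of Mrps6 between glutamine levels (0.0042) and of Mrps30 with EIPA (0.043). Deviations of same-numbered libraries correlated by 0.062 to 0.32 with EIPA, -0.28 to 0.60 with IL-1a and 0.049 to 0.17 between glutamine levels. Not every pair exceeded 0.1 and the labels name no shared batch, so the numbers were not taken to pair the samples. That 4, 2 and 4 of 5 libraries correlated best with their own number is a hint of pairing from the data, not from the design. Depth is unknown, so what it limits could not be measured.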
